A study of Mus musculus with 20 samples.

Results

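The liver response to a high-fat diet (HFD) after Roux-en-Y gastric bypass (RYGB) was measured in 10 of the 20 mice of the study, 5 RYGB HFD mice against 5 RYGB Chow mice. RYGB makes a small stomach pouch and joins it to the small intestine further down, so that food bypasses most of the stomach and the upper intestine. All 10 were male C57BL/6J mice, obese from their diet when operated on and counted by the study among its lean groups 8 weeks later. Each had eaten HFD for 12 weeks when it was operated on and ate chow or HFD for the 8 weeks that followed, so that both groups shared the surgery and the earlier HFD and differed in the later diet. Each library was made from polyadenylated RNA of the snap-frozen liver of 1 mouse, and the livers were drawn at random from an earlier cohort. The other 10 mice, Sham Chow and Sham HFD, 5 each, had the same diets after a sham operation and served to compare the diet difference between the operations. The study reports that Sham HFD mice weighed more than all other groups, so that surgery and body weight cannot be told apart in this comparison. The members were the 10 RYGB count columns, and 12289 of the 54532 genes counted reached 2 CPM in 3 or more of the 20 mice and were tested. CPM, the count scaled to library size with TMM factors, is the level given throughout, and log2 fold changes are differences of RYGB HFD less RYGB Chow.

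Hepatocytes, which make up most of the liver's mass, secrete most plasma proteins, including clotting factors, complement and the iron hormone hepcidin. They also make and export lipids, and clear foreign and waste compounds with cytochrome P450 enzymes, which oxidize them, and with transferases, which couple them to glutathione. Many of the P450 genes are driven by the receptors PXR and CAR, and many glutathione transferase genes by the factor NRF2.

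Total counts ran from 16162457 to 20122388 per RYGB Chow mouse and from 15474162 to 19052529 per RYGB HFD mouse. The 7 hepatocyte markers summed to between 70960.0 and 119000.0 CPM in RYGB Chow and between 94840.0 and 113800.0 CPM in RYGB HFD, as a liver label requires. On the first principal component of the 10 mice, which held 23.0% of the variance, no RYGB Chow mouse overlapped an RYGB HFD mouse. A pair of RYGB Chow mice stood apart. RYGB Chow 3 had the lowest hepatocyte sum and high serine and asparagine synthesis genes (*Phgdh* 23.5 CPM, where the other 9 mice had at most 0.623), and RYGB Chow 5 had high interferon-gamma response genes (*Cxcl9* 56.2 CPM) and a T and NK cell marker sum of 17.3 CPM against at most 4.58 in the others. Exocrine pancreas markers summed to 4.5 CPM in RYGB Chow 3 and to at most 1.35 CPM in the other 9 mice. The part of other tissue in that sample was not tested. Endothelial markers were low in RYGB Chow 5, RYGB HFD 2 and RYGB HFD 3, at 124, 175 and 135 CPM, against at least 254 CPM in the other 7. Counts without both RYGB Chow mice 3 and 5, a choice made after seeing the data, are therefore given beside the counts below.

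In RYGB Chow vs. RYGB HFD, HFD raised 245 genes and lowered 203 (edgeR quasi-likelihood test on all 4 groups, Benjamini-Hochberg adjusted p under 0.05). These were 1.99% and 1.65% of the genes tested, together 3.65%. Most differences were small, with a median absolute log2 fold change of 0.54 among the genes higher and 0.55 among those lower, and 33 and 55 genes reached a 2-fold change. All 5 RYGB HFD mice lay beyond all 5 RYGB Chow mice for 621 genes, 5.05% of those tested, and for 182 and 142 of the genes called higher and lower. The median log2 fold change over all tested genes was 0.00, a value that the TMM scaling holds near 0. Leaving out both RYGB Chow mice 3 and 5 gave 89 genes higher and 89 lower. In a model of only the 10 RYGB mice, 94 were higher and 90 lower. Single mice weighed on the counts too. Genes higher numbered 122 without RYGB HFD 3, 144 without RYGB HFD 1, 150 without RYGB HFD 4 and 158 without RYGB Chow 3, and genes lower 114 without RYGB HFD 4, 118 without RYGB HFD 1 and 131 without RYGB HFD 3 or without RYGB Chow 5.

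The pathway lists that stood furthest above these shares were, on the lower side, glutathione transferases and NRF2 targets (14 of 32 tested, 43.8%) and xenobiotic cytochrome P450 genes (10 of 42, 23.8%). On the higher side they were coagulation and fibrinolysis (11 of 31, 35.5%), acute phase (8 of 26, 30.8%) and complement (7 of 34, 20.6%). No gene of the first pair of lists was called higher, and none of the other 3 was called lower. In amino acid catabolism and the urea cycle (40 genes tested), endoplasmic reticulum stress (29), the circadian clock (18) and hypoxia (15), edgeR called 0 genes, while 8, 4, 1 and 1 had an unadjusted p under 0.05. DESeq2 called 1 gene in the first of these lists and 0 in the others, and limma-voom 0 in all 4. The plot of the gene lists shows these shares with the medians.

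**Figure D1:**
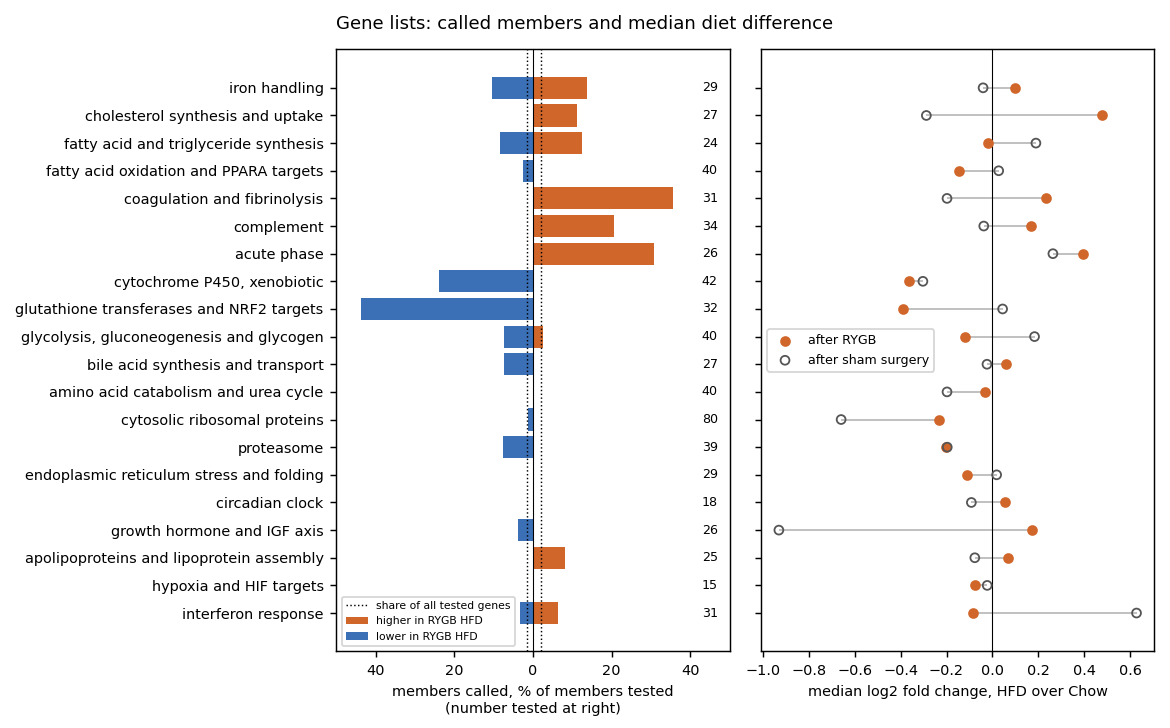
Left, share of the tested genes of each list, in percent, called higher or lower in RYGB HFD than in RYGB Chow, with dotted lines at the shares of all tested genes (1.99% and 1.65%). Right, median log2 fold change of each list for HFD against chow after RYGB (filled) and after sham surgery (open). Glutathione transferases lie at 43.8% called lower, with medians of -0.39 after RYGB and 0.04 after sham surgery.

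Iron genes moved in both directions, with 4 of 29 called higher and 3 lower (24.1% in all). Hepcidin, the hormone that closes the iron exporter ferroportin, was lower in all RYGB HFD mice. It is encoded by *Hamp* (ENSMUSG00000050440, chromosome 7 from 30942368 to 30944032 on GRCm38), and the mouse has a copy next to it, *Hamp2* (ENSMUSG00000056978, chromosome 7 from 30922372 to 30924681). *Hamp* was at 3.05, 4.9, 447, 1.08 and 10.8 CPM in RYGB Chow 1 to 5 and at 0.163, 0.521, 0.115, 0.0591 and 0.0665 CPM in RYGB HFD 1 to 5. The groups did not overlap, but RYGB Chow 3 lay far above its group and the other 4 RYGB Chow mice lay between 1.08 and 10.8 CPM. After sham surgery the mean was 829.6 CPM in Sham Chow and 326.8 CPM in Sham HFD. Those 4 RYGB Chow mice thus lay far below both sham means, and the diet difference after RYGB was between low levels. The fitted log2 fold change was -8.86 (SE 1.62, adjusted p = 0.00372), and it was -4.61 (adjusted p = 0.000334) without RYGB Chow 3. With limma-voom it was -5.73 and not called (adjusted p = 0.38). The group totals were 8499 counts in RYGB Chow and 17 in RYGB HFD, the ratio of the group medians was 42.5-fold, and the ratio of the means without RYGB Chow 3 was 26.7-fold. *Hamp2* was at 4.58, 1.51, 0.494, 0.587 and 4.08 CPM in RYGB Chow and at 0 in every RYGB HFD mouse. Against the floor of 3 counts over the group, the 205 counts of RYGB Chow make *Hamp2* at least 63.7-fold lower in RYGB HFD (adjusted p = 0.00927), a call that limma-voom did not make (adjusted p = 0.0742). Each difference had the smallest p that the exact permutation test over the 252 splits of 10 mice allows, two-sided p = 0.00794. Any gene without overlap gets this value, so that it adds nothing to the lack of overlap.

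Reads of *Hamp* and *Hamp2* can be counted for each other, a question that stretches before the genes cannot answer. The sequences before both start sites are shown because the genes fell together. They run 5′ to 3′ on the minus strand (RefSeq, GRCm38.p6), from chr7:30944033-30944279 for *Hamp* and from chr7:30924182-30924431 for *Hamp2*, and capitals mark matches to GGCGCC, a core bound by SMAD factors of the BMP pathway that drives hepcidin, and to TTCNNNGAA, a core bound by STAT3.
Hamp: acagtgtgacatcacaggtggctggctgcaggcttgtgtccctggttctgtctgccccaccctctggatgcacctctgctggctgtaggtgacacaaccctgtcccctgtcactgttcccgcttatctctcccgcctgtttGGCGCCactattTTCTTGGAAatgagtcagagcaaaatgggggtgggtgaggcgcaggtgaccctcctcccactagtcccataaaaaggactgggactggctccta
Hamp2: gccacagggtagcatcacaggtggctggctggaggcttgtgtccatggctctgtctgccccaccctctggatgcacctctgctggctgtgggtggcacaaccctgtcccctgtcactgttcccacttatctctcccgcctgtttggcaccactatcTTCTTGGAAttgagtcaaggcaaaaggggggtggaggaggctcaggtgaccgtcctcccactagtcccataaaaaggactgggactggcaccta
The stretches were identical at 227 of 253 aligned positions (89.7%). The stretch of *Hamp2* lies inside the gene span given above, since the RefSeq start that it precedes lies within that span. TTCNNNGAA stood at -97 to -89 before the start of *Hamp* and at -94 to -86 before that of *Hamp2*, and 7.02% of the 32851 promoter stretches of 250 bases held it on either strand. GGCGCC stood before *Hamp* at -109 to -104 and had no match before *Hamp2*. It was present in 9.59% of the stretches.

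*Bmp6* and *Id1* of the BMP pathway were not called. *Bmp6*, its ligand from endothelial cells, had a log2 fold change of -0.59 (adjusted p = 0.371), and its target *Id1* -0.84 (adjusted p = 0.216). Both are named here outside the rule for named genes, for their place beside *Hamp*. *Slc40a1*, ferroportin itself, had 0.15 (adjusted p = 0.625).

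Storage and transport genes moved by less. *Ftl1*, the ferritin light chain (ENSMUSG00000050708, chromosome 7 from 45457944 to 45459884), was at 1411, 1808, 1729.6, 1460.1 and 1793 CPM in RYGB Chow and at 1190.1, 1161, 1292, 1069 and 1054 CPM in RYGB HFD, and it fell by 0.51 on the log2 scale (SE 0.10, adjusted p = 0.00433). Every RYGB HFD mouse lay below every RYGB Chow mouse. Reads of *Ftl1* can also come from its pseudogenes. *Fth1*, the heavy chain, had 1380.3, 1607, 1612, 1413 and 1730.0 CPM in RYGB Chow and 1261, 1240.2, 1334, 1275 and 1332 in RYGB HFD, which also did not overlap, without reaching the threshold (log2 fold change -0.27, adjusted p = 0.0577). *Trf*, transferrin, which carries iron in plasma, rose from 874 ± 77.8 to 1159 ± 111 CPM (mean ± SD, n = 5; log2 fold change 0.41, adjusted p = 0.0143). *Steap3*, the reductase that frees transferrin iron inside the cell, rose with it (0.59, adjusted p = 0.0151), as did *Cp*, the plasma ferroxidase ceruloplasmin (0.38, adjusted p = 0.028), and *Hp*, haptoglobin, which binds free hemoglobin (0.52, adjusted p = 0.025). *Steap3* (adjusted p = 0.0872) and *Cp* (0.0759) were no longer called without both RYGB Chow mice 3 and 5, and of the 4 genes that rose 2 were called without RYGB Chow 4 or without RYGB HFD 3. *Tfrc*, the transferrin receptor, was at 51.7, 46.6, 39.2, 48.4 and 20.7 CPM in RYGB Chow and 61.3, 18, 92.9, 104 and 83.5 CPM in RYGB HFD, where 4 mice lay above all RYGB Chow mice and RYGB HFD 2 below them (log2 fold change 0.80, adjusted p = 0.155).

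**Figure D2:**
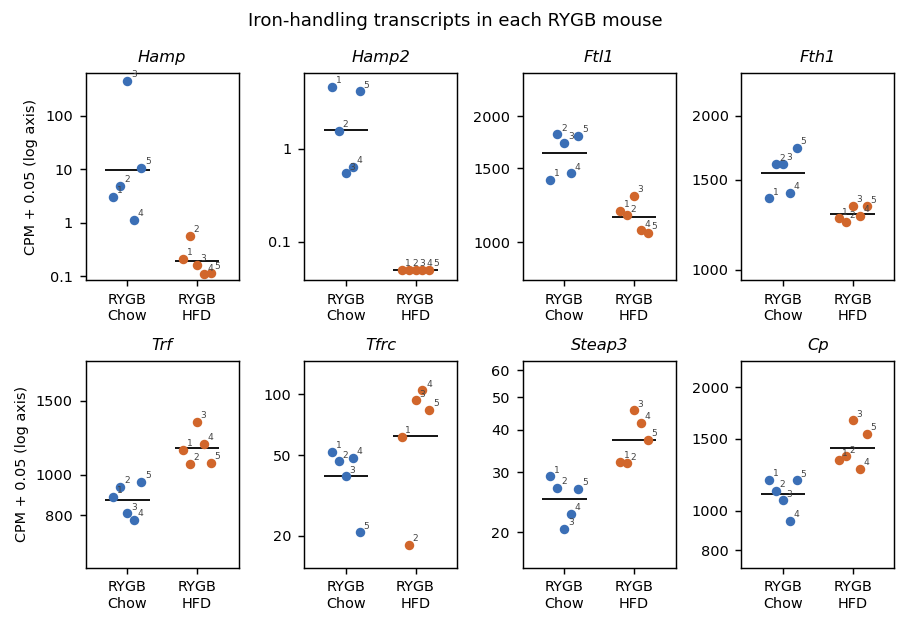
CPM + 0.05 (log axis) of 8 iron genes in the 5 RYGB Chow and 5 RYGB HFD mice, each point carrying its mouse number and lines marking geometric means. *Hamp* and *Hamp2* of all RYGB HFD mice lie below those of all RYGB Chow mice, and RYGB Chow 3 stands at 447 CPM of *Hamp*.

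Cytochrome P450 genes gave the difference with the smallest p of the whole contrast. *Cyp3a11* (ENSMUSG00000056035, chromosome 5 from 145854426 to 145879964), the main drug-oxidizing enzyme of mouse liver and a target of PXR, was at 6610.1, 6691, 3962, 5494 and 7865 CPM in RYGB Chow and at 419, 328, 729, 487 and 435 CPM in RYGB HFD. The highest RYGB HFD mouse lay far below the lowest RYGB Chow mouse, RYGB Chow 3. The log2 fold change was -3.67 (SE 0.22, adjusted p = 2.06e-09). The exact permutation p of *Cyp3a11* was 0.00794, the value that any gene without overlap gets. Its neighbours in the family fell too, *Cyp3a59* with a log2 fold change of -2.48 (adjusted p = 2.33e-05) and *Cyp3a25* with -1.03 (adjusted p = 6.49e-05). Their sequences are close, so that some reads may have been shared between them.

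The other P450 genes called in this list belong to the 2c, 2b, 2a and 2j families. *Cyp2c55* was at 16.1, 19.8, 3.3, 17.5 and 29.3 CPM in RYGB Chow and at 0.925, 1.09, 1.9, 0.946 and 0.93 CPM in RYGB HFD (log2 fold change -3.88, adjusted p = 1.1e-05). *Cyp2c29* was at 1722, 2021, 877, 1753 and 2233 CPM and at 365, 422, 667, 539.8 and 563 CPM (-1.75, adjusted p = 4.47e-05). In both, the groups did not overlap and RYGB Chow 3 was the lowest mouse on chow. *Cyp2b10*, the usual readout of CAR, had 192 counts over the RYGB Chow group and 1 over the RYGB HFD group, a ratio of 179-fold (exact 95% interval 31.7 to 7100.0, counting error only), and RYGB Chow 3 lay near the RYGB HFD mice at 0.0549 CPM. *Cyp2a5* fell from 903 ± 374 to 397 ± 140.1 CPM (adjusted p = 0.0487), with overlap through RYGB Chow 3, and its near-identical copy *Cyp2a4* fell from 4.23 ± 5.14 to 0.406 ± 0.379 CPM (adjusted p = 0.0245). *Cyp2j9*, an epoxygenase family member, fell by 0.86 (adjusted p = 0.0196). *Ephx1*, the epoxide hydrolase that works after the P450 enzymes, was at 345, 413, 713, 367 and 505 CPM in RYGB Chow and at 209, 170.3, 179, 148 and 175 in RYGB HFD (-1.41, adjusted p = 6.49e-05), here with RYGB Chow 3 as the highest mouse. *Cyp2a4*, *Cyp2a5* and *Cyp2j9* were not called without both RYGB Chow mice 3 and 5, which left 7 of the 10. With limma-voom 7 were called as well, without *Cyp2a4* (adjusted p = 0.231), *Cyp2a5* (0.0693) and *Cyp2b10* (0.0737).

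The shared electron donor and the receptor CAR did not pass. *Por*, the reductase that feeds electrons to all of these enzymes, had a log2 fold change of -0.53 (adjusted p = 0.0897), and *Nr1i3*, which encodes CAR, 0.11 (adjusted p = 0.823). Over the 42 tested genes of the list the median was -0.36, against 0.00 over all tested genes, and 30 had a fitted value below 0.

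Glutathione transferases and NRF2 targets fell in the largest share of the 20 pathway lists. *Gstm1* (ENSMUSG00000058135, chromosome 3 from 108012255 to 108017973), a main mu-class transferase of the liver, was at 1900.2, 1895, 1808, 1439 and 2421 CPM in RYGB Chow and at 560.4, 612, 614, 636 and 752 CPM in RYGB HFD, with a log2 fold change of -1.58 (SE 0.14, adjusted p = 1.28e-06). *Gstm3* was at 137, 135, 53.5, 68.1 and 214 CPM and at 17.9, 19.8, 17.5, 21.5 and 28.6 CPM (-2.53, SE 0.31, adjusted p = 6e-05). The groups overlapped in neither. Of the other mu-class genes, *Gstm4* (-1.33, adjusted p = 5.3e-06) and *Gstm2* (-0.95, adjusted p = 0.0119) fell, and *Gstm5* (adjusted p = 0.66), *Gstm6* (0.0507) and *Gstm7* (0.712) were not called.

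In the alpha class, *Gsta2* was at 44.6, 50.6, 27.9, 24.8 and 59 CPM in RYGB Chow and 9.14, 6.77, 6.46, 9.11 and 11.5 CPM in RYGB HFD (-2.27, adjusted p = 8.23e-06), and *Gsta1* was at 5.07, 6.52, 1.26, 2.93 and 8.43 CPM and 0.653, 0, 1.04, 0 and 0.399 CPM (-3.52, adjusted p = 0.00164). *Gsta4*, which clears the lipid peroxidation product 4-hydroxynonenal, fell by 0.79 (adjusted p = 0.00254). Of the other classes, *Gstp1* (-1.21, adjusted p = 0.00086), *Gsto1* (-0.53, 0.00101), *Gstt3* (-1.10, 0.0248) and the membrane-bound *Mgst3* (-0.91, 0.0296) fell. Reads of near-identical members of the mu and alpha classes cannot be assigned with certainty, since the handling of reads with several matches is not given in the sources used here.

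NRF2 targets outside the transferases were called in part. *Nqo1*, a quinone reductase and a standard readout of NRF2, was at 7.19, 6.3, 6.54, 5.72 and 12.6 CPM in RYGB Chow and 4.52, 4.06, 4.38, 1.83 and 4.52 CPM in RYGB HFD (-0.98, adjusted p = 0.0246). *Gsr*, glutathione reductase, (-0.36, adjusted p = 0.0171), and *Txnrd1*, thioredoxin reductase (-0.29, 0.0314), fell. *Gclc*, the rate-limiting enzyme of glutathione synthesis, overlapped fully, at 246 to 429 CPM in RYGB Chow and 252 to 401 in RYGB HFD (adjusted p = 0.713). Without both RYGB Chow mice 3 and 5, 13 genes of the list were called, 10 of the 14 with *Gstm6*, *Gsta3* and *Mgst1*, but not *Nqo1* (adjusted p = 0.128), *Gsr* (0.131), *Mgst3* (0.123) or *Txnrd1* (0.134). Of the 12 called transferase and NRF2 genes with a RefSeq promoter entry, 1, *Txnrd1*, held TGACNNNGC, the core of the NRF2 site, against 10.2% of all entries.

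**Figure D3:**
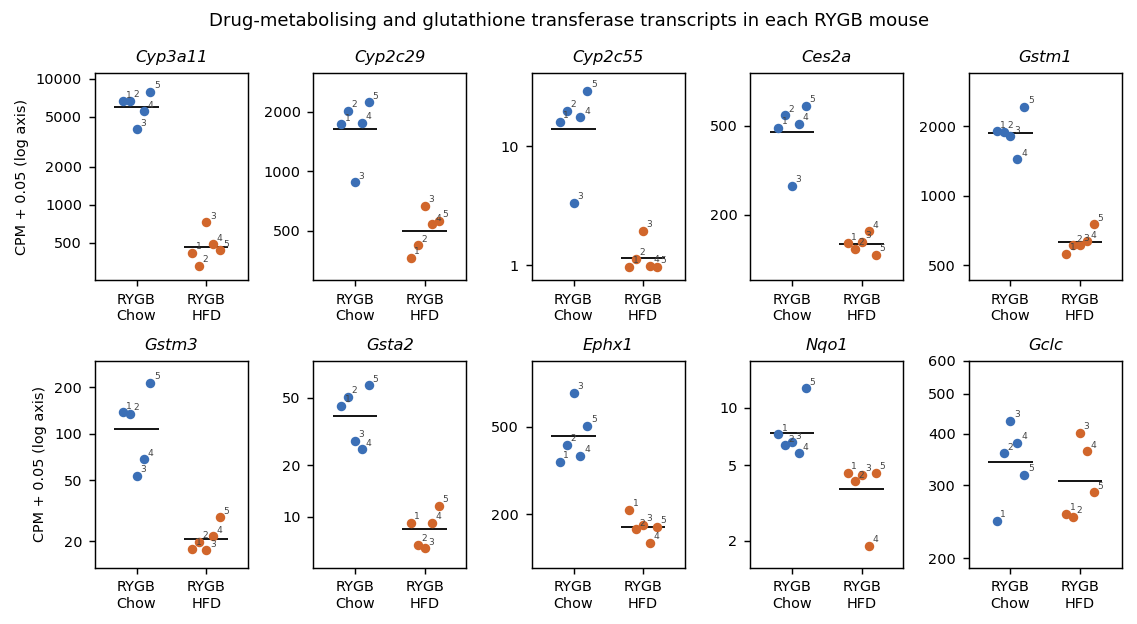
CPM + 0.05 (log axis) of 10 genes of detoxification in the 5 RYGB Chow and 5 RYGB HFD mice, with mouse numbers and geometric means as lines. *Cyp3a11* runs from 3962 to 7865 CPM in RYGB Chow and from 328 to 729 CPM in RYGB HFD, and *Gclc* overlaps.

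Part of the genes for clotting, complement and acute phase proteins, which the liver secretes into plasma, rose in RYGB HFD. In the coagulation list 11 of 31 rose, none fell, and the median log2 fold change was 0.23. The 3 chains of fibrinogen, the precursor of the clot, lie in one cluster on chromosome 3. *Fgb* (ENSMUSG00000033831, chromosome 3 from 83040141 to 83049863) was at 3325, 3995, 3297, 3528 and 4162 CPM in RYGB Chow and at 4831, 5346, 5477, 4983 and 5628 CPM in RYGB HFD (log2 fold change 0.52, SE 0.09, adjusted p = 0.00365). *Fgg* rose by 0.49 (adjusted p = 0.00862) and *Fga* by 0.40 (adjusted p = 0.0321). For each of the 3, all 5 RYGB HFD mice lay above all 5 RYGB Chow mice. *Fga* was not called without both RYGB Chow mice 3 and 5 (adjusted p = 0.0912).

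The stretches before the 3 fibrinogen genes are shown since these genes rose together. They are from RefSeq on GRCm38.p6, chr3:83025903-83026075 on the plus strand for *Fga*, chr3:83049864-83050113 on the minus strand for *Fgb* and chr3:83007474-83007723 on the plus strand for *Fgg*. Capitals mark TTCNNNGAA and CTGGGAA, an element known from interleukin-6-responsive liver genes.
Fga: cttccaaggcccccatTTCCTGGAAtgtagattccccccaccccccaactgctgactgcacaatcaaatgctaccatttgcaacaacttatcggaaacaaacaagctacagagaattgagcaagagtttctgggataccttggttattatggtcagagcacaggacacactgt
Fgb: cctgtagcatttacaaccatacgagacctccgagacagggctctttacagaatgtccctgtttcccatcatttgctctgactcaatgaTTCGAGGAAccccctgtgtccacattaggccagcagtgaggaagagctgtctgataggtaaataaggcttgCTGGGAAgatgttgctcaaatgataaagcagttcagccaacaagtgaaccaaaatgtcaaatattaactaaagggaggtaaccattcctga
Fgg: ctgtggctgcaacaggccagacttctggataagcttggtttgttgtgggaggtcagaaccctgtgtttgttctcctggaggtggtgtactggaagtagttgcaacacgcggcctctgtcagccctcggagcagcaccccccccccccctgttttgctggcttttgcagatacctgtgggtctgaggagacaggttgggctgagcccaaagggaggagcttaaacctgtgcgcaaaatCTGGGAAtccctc
Positions are counted from the RefSeq start. The stretch of *Fga* is 173 bases long, since the bases between its end and the RefSeq start, which GENCODE places in an exon, were left out. TTCNNNGAA stood at -234 to -226 before the RefSeq start of *Fga* and at -162 to -154 before that of *Fgb*. CTGGGAA stood at -91 to -85 before *Fgb* and at -13 to -7 before *Fgg*, and 9.1% of all stretches held it on either strand.

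The other called clotting factors and regulators rose by 0.30 to 1.04 on the log2 scale. *F11*, factor XI of the contact pathway, went from 67.3 ± 22.1 to 124 ± 15.4 CPM (log2 fold change 0.88, adjusted p = 0.0383), with RYGB Chow 3 the lowest mouse at 29.5 CPM. *Klkb1*, plasma prekallikrein, which acts in the same pathway, rose by 0.33 (0.0476), *F9*, factor IX, by 0.30 (0.0355) and *F5*, the factor V cofactor, by 0.37 (0.0162, adjusted p in each). *Plg*, plasminogen, which dissolves clots, rose by 0.30 (adjusted p = 0.033), *Hrg*, histidine-rich glycoprotein, by 0.39 (0.032) and *Serpina10*, an inhibitor of factor Xa, by 0.51 (0.00702). *Fgl1*, a fibrinogen-like hepatokine, was at 145, 201, 314, 199 and 248 CPM in RYGB Chow and 523, 518, 586, 281 and 364 CPM in RYGB HFD (1.04, adjusted p = 0.00433), where RYGB Chow 3 lay above RYGB HFD 4. The count of 11 was 5 without RYGB Chow 3, also 5 without both RYGB Chow mice 3 and 5, and 3 in a model of only the 10 RYGB mice, with 13 as the most, with library sizes only.

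Complement genes of several steps rose. *C3*, on which all activation routes meet, was at 8121, 8462, 6378, 6459.5 and 6223 CPM in RYGB Chow and at 8808, 8838, 10785, 8776 and 11031 CPM in RYGB HFD (0.44, adjusted p = 0.0256). *C4b*, of the classical and lectin routes, was at 1214, 1243, 1085, 1081 and 1359 CPM and at 2096, 1813, 2089, 1509 and 1852 CPM (0.65, SE 0.09, adjusted p = 0.000522). Of the terminal components, *Hc*, which encodes C5, rose by 0.61 (adjusted p = 0.00372) and *C8a* by 0.45 (0.0355), and of the regulators *Clu* rose by 0.30 (0.0248). *C9* (log2 fold change 0.43, adjusted p = 0.199) and *C8b* (0.17, adjusted p = 0.598) were not called. Without both RYGB Chow mice 3 and 5, 4 genes were called, among them *C4b*, *Hc* and *Clu*, and *C3* (adjusted p = 0.166), *C8a* (0.199) and *Cfd* (0.094) were not. Without RYGB HFD 3 the count was 3.

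In the acute phase list 8 of 26 rose, 3 of them (*Fgl1*, *Hp*, *Cp*) also counted above. *Itih3*, a heavy chain that binds hyaluronan in plasma (ENSMUSG00000006522, chromosome 14 from 30908572 to 30923760), was at 683, 751, 649.8, 580.2 and 711 CPM in RYGB Chow and at 1203, 1087, 1638, 977 and 1332 CPM in RYGB HFD (0.89, SE 0.13, adjusted p = 0.00063). *Itih4* rose from 1702 ± 123 to 2513 ± 431 CPM (adjusted p = 0.0017). *Serpina3n*, a protease inhibitor, rose by 0.69 (adjusted p = 0.0108), *Steap4*, a metalloreductase, by 0.62 (0.00816) and *Saa4*, the constitutive serum amyloid A, by 0.55 (0.0153). The acute reactants that rise most in inflammation were not called. *Saa1* was at 17.2, 12.6, 31.8, 29.3 and 62.9 CPM in RYGB Chow and 67.6, 51.5, 60.1, 24 and 19.8 CPM in RYGB HFD (adjusted p = 0.505), and *Orm1* (0.12, adjusted p = 0.787) and *Socs3*, the feedback inhibitor of interleukin-6 signalling (0.19, adjusted p = 0.732), overlapped between the groups. *Lcn2*, lipocalin 2, was higher in every RYGB HFD mouse than in RYGB Chow 1 to 4 but not than RYGB Chow 5, at 3.05, 3.34, 3.85, 4.01 and 12.6 CPM against 16.5, 9.16, 32, 6.86 and 9.84 CPM (1.47, adjusted p = 0.0571). Without both RYGB Chow mice 3 and 5, the count in this list was again 8, where *Lcn2* was called (adjusted p = 0.0221) and *Saa4* (0.0751) and *Cp* (0.0759) were not.

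**Figure D4:**
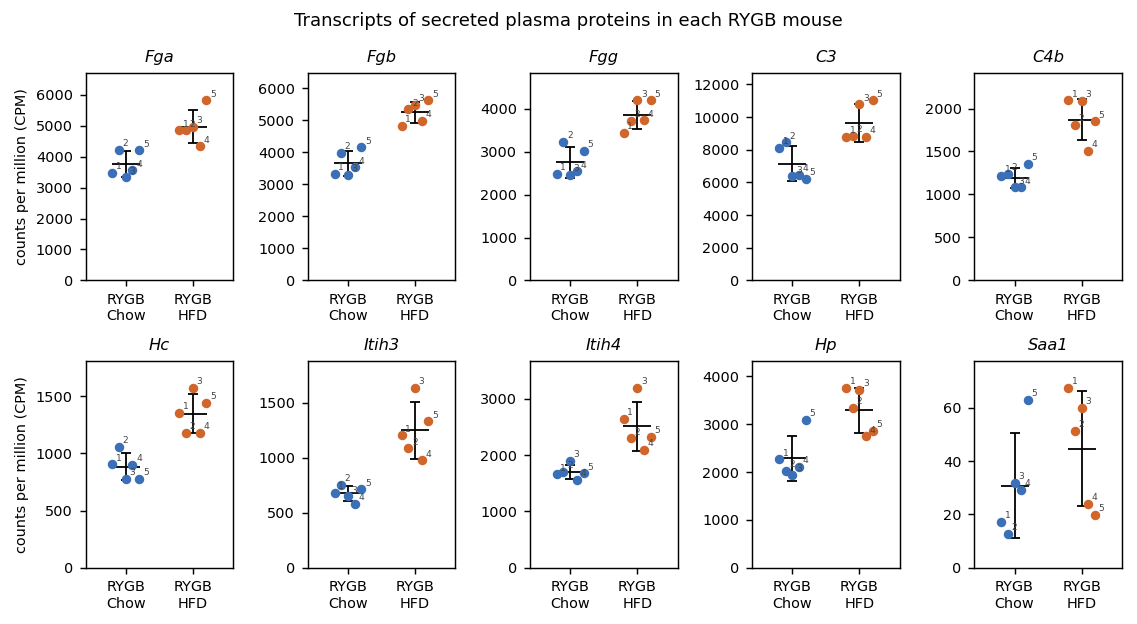
CPM (linear axis from 0) of 10 genes of plasma proteins in the 5 RYGB Chow and 5 RYGB HFD mice, as points with mean ± SD. The fibrinogen, *C3*, *C4b*, *Hc*, *Itih3* and *Itih4* points of RYGB HFD lie above all of RYGB Chow, while *Hp* and *Saa1* overlap.

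Of the other cells that bear on plasma proteins and inflammation, markers moved little. Sums for Kupffer cells ran from 231 to 558 CPM in RYGB Chow and from 235 to 431 CPM in RYGB HFD, those for stellate cells from 209 to 262 and from 211 to 315 CPM, and edgeR called 0 of the 8 and 0 of the 9 tested markers, of which 0 and 1 had an unadjusted p under 0.05 (0 by DESeq2 and by limma-voom). Neutrophil markers summed to at most 3.17 CPM and *Ly6g* was at 0 in every mouse. The part of these cells in the differences was not tested. In whole liver, fewer cells of a type and less RNA per cell cannot be told apart.

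Cholesterol synthesis genes were mostly above 0 in RYGB HFD, with a median log2 fold change of 0.48 and 26 of 27 genes positive, while 3 (11.1%) were called. *Idi1*, an isomerase of the isoprenoid steps, was at 74.7, 84.9, 24.9, 44.4 and 62.9 CPM in RYGB Chow and 200.1, 122, 128, 114 and 116 CPM in RYGB HFD (1.22, adjusted p = 0.0194). *Hmgcs1*, which makes HMG-CoA, was at 161, 201, 100.5, 80.5 and 195 CPM and 406, 377, 351, 235 and 247 CPM (1.13, adjusted p = 0.0289). *Scap*, the escort of the SREBP factors, rose by 0.33 (adjusted p = 0.0362). RYGB Chow 3 and 4 were the lowest mice in *Idi1*, and in *Hmgcs1* as well. Without both RYGB Chow mice 3 and 5, and also without RYGB HFD 1 alone, 0 genes of the list were called, while DESeq2 called 9. *Sqle*, the squalene epoxidase (0.96, adjusted p = 0.202), and *Srebf2*, which encodes SREBP2 (0.48, 0.0614), did not pass.

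Fatty acid synthesis genes split. *Scd1*, the stearoyl-CoA desaturase, was at 17956, 9143, 4675, 6026 and 8666 CPM in RYGB Chow and 4483, 1779, 6029, 2874 and 1472 CPM in RYGB HFD (-1.48, adjusted p = 0.0311), with overlap between RYGB HFD 3 and RYGB Chow 3 and 4. *Me1*, malic enzyme, which supplies NADPH and is also an NRF2 target, was at 299, 194, 383, 212 and 267 CPM and 89.8, 96.6, 108, 69.7 and 70.1 CPM, without overlap (-1.64, SE 0.20, adjusted p = 6.49e-05). Both fell, while 3 genes of the same list rose. *Srebf1*, the master factor of lipogenesis, rose by 0.80 (adjusted p = 0.0342), in 4 of the 5 mice, since RYGB HFD 5 was the lowest of all 10 at 178 CPM. The desaturases of polyunsaturated fats, *Fads1* and *Fads2*, rose by 0.50 (adjusted p = 0.0151) and 0.56 (0.0367). Without RYGB Chow 2, 1 gene of the list was called higher. *Srebf1* (adjusted p = 0.162) and *Fads1* (0.0764) were not called without both RYGB Chow mice 3 and 5. *Fasn*, fatty acid synthase (0.71, adjusted p = 0.203), *Acaca* (-0.06, 0.897) and *Elovl6* (-0.45, 0.19) were not called, nor was *Cd36*, the fatty acid transporter (-0.25, 0.603).

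Among 40 genes of fatty acid oxidation and PPARA targets, 31 had a value below 0 and 1 was called (2.5%). It was *Cyp4a12a*, an omega-hydroxylase of male mouse liver and also a member of the growth hormone list, at 259, 191, 107, 275 and 151 CPM in RYGB Chow and 28.6, 27.9, 67.3, 85.8 and 81 CPM in RYGB HFD (-1.76, adjusted p = 0.00373). *Cyp4a14*, a classic PPARA target, was at 2336, 1601, 3051, 1289.6 and 1449 CPM and 353, 927, 791, 1139 and 1952 CPM, which overlapped (adjusted p = 0.139). *Cpt1a*, which admits fatty acids to mitochondria, did not overlap, with 591 to 700.1 CPM in RYGB Chow and 727 to 847 CPM in RYGB HFD, but missed the threshold (0.23, adjusted p = 0.0658).

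Of 25 apolipoprotein and lipoprotein genes, 2 rose (8.0%, against 1.99% of all tested genes) and both encode receptors. *Scarb1*, the HDL receptor SR-BI (ENSMUSG00000037936, chromosome 5 from 125277087 to 125341094), was at 179, 202, 197, 186 and 221 CPM in RYGB Chow and 270.4, 292, 263, 317 and 374 CPM in RYGB HFD (0.62, SE 0.09, adjusted p = 0.000516). *Lrp1*, the remnant receptor, rose by 0.60 (adjusted p = 0.0119), and this call was lost without both RYGB Chow mice 3 and 5 (0.0891). *Apob* (0.30, adjusted p = 0.118), *Apoa4* (0.28, 0.769), *Apoa5* (-0.44, 0.175) and *Apoc3* (-0.04, 0.911) were not called.

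In bile acid synthesis and transport, 2 of 27 genes (7.41%) fell. *Abcc3*, the pump that exports bile acids and conjugates to blood, was at 425, 402, 261, 385 and 371 CPM in RYGB Chow and 185, 200.3, 218, 130.1 and 214 CPM in RYGB HFD (-0.96, SE 0.13, adjusted p = 0.000241), without overlap. *Cyp39a1*, an oxysterol hydroxylase, fell by 1.29 (adjusted p = 0.0367), where RYGB Chow 3 stood at 143 CPM, and it was not called without both RYGB Chow mice 3 and 5 (adjusted p = 0.269). *Cyp7a1*, the rate-limiting enzyme of bile acid synthesis, was at 118, 95.1, 94.9, 84.6 and 145 CPM in RYGB Chow and 509, 315, 314, 119 and 54.9 CPM in RYGB HFD. RYGB HFD 1 to 3 lay above all RYGB Chow mice and RYGB HFD 5 below them, and the gene was not called (1.29, adjusted p = 0.111). The same mice differed in clock genes. *Arntl*, the core activator of the clock, was at 0.816, 1.2, 2.48, 5.03 and 12.1 CPM in RYGB HFD 1 to 5, and *Dbp*, an output of the clock, at 172, 204, 149.8, 134 and 46.3 CPM, so that RYGB HFD 4 and 5 had the higher *Arntl* and the lower *Dbp*. The part of the clock in the differences was not tested. *Cyp8b1* (-0.32, adjusted p = 0.354), *Nr0b2* (0.43, 0.313), *Abcb11* (0.26, 0.246) and *Slco1a1* (0.13, 0.932) were not called.

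Sugar metabolism gave 3 genes lower and 1 higher of 40. *G6pc*, which releases glucose from glucose-6-phosphate, was at 442, 153, 265, 376 and 258 CPM in RYGB Chow and 165, 128, 95, 169 and 163 CPM in RYGB HFD (-1.05, adjusted p = 0.0256). *Pfkm* (-0.41, adjusted p = 0.0322) and *Gpi1* (-0.45, 0.0447) of glycolysis fell, and *Pcx*, pyruvate carboxylase, rose by 0.26 (0.0398). In none of the 4 was the call kept without both RYGB Chow mice 3 and 5 (adjusted p from 0.0525 to 0.365). *Pfkm* overlaps *Senp1*, and reads of the pair cannot be told apart unless strand was used in counting. *Pck1*, of gluconeogenesis (-0.84, adjusted p = 0.13), and *Pck2* (-1.04, 0.0897) were not called.

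Nitrogen disposal came next. *Cps1* (0.02, adjusted p = 0.972), *Ass1* (-0.16, 0.763) and *Arg1* (-0.33, 0.331) of the urea cycle and *Tat* (-0.21, 0.723) and *Sds* (-0.24, 0.754) of catabolism were not called, and RYGB Chow 3 was the lowest of the 10 mice in *Cps1*, *Ass1* and *Arg1*. The growth hormone list had 1 of 26 called (3.85%), *Cyp4a12a*. *Igf1* (0.19, adjusted p = 0.361), *Igfbp2* (0.29, 0.537), *Igfbp1* (-0.78, 0.314) and *Mup20* (0.01, 0.987) were not.

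Ribosomal protein genes leaned one way without being called. Of 80, 77 had a value below 0, with a median log2 fold change of -0.23, and 1 (1.25%) fell, *Rpl12* (-0.42, adjusted p = 0.0328), whose reads overlap those of *Lrsam1*. *Rplp0* had -0.12 (adjusted p = 0.372) and *Rps6* -0.18 (0.237). Proteasome genes showed the same lean, 38 of 39 below 0 with a median of -0.20, and 3 (7.69%) fell. *Adrm1*, a ubiquitin receptor of the cap, was at 102, 97.2, 101, 89.1 and 125 CPM in RYGB Chow and 73.8, 78.3, 75.6, 80.1 and 79.9 CPM in RYGB HFD (-0.41, adjusted p = 0.00507), and *Psmb5*, the chymotrypsin-like subunit (-0.40, 0.0236), and *Psmc1* (-0.26, 0.0277) fell with it. *Psmb5* (0.139) and *Psmc1* (0.134) were not called without both RYGB Chow mice 3 and 5, nor without RYGB Chow 5, RYGB HFD 3 or RYGB HFD 4 alone. In endoplasmic reticulum stress, *Hspa5* (-0.25, adjusted p = 0.409), *Ddit3* (-0.24, 0.538), *Trib3* (-0.33, 0.318) and *Xbp1* (0.01, 0.978) did not pass, nor did *Epas1*, which encodes HIF-2 alpha (0.29, 0.323), or *Egln3*, a target of HIF (-0.19, 0.408).

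The interferon list had 2 genes higher and 1 lower of 31 (9.68%). *Ddx58*, which encodes the RNA sensor RIG-I, was at 22.2, 24.3, 29.6, 22.1 and 23.2 CPM in RYGB Chow and 37.8, 37, 43, 37.1 and 31.8 CPM in RYGB HFD (0.62, adjusted p = 0.00447), and *Ifih1*, which encodes the sensor MDA5, rose by 0.55 (adjusted p = 0.0125). *Bst2*, tetherin, was at 122, 137, 140.4, 126 and 231 CPM and 90.5, 85.8, 69.2, 85.2 and 67.8 CPM (-0.93, SE 0.14, adjusted p = 0.000553). All 3 were also called without both RYGB Chow mice 3 and 5. RYGB Chow 5 had the highest *Bst2*, *Isg15* and *Ifit1* of its group, and neither *Isg15* (adjusted p = 0.954) nor *Ifit1* (0.947) was called.

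*Ces2a*, *Neat1*, *Ptk6* and *Stxbp6* were called and belong to none of the pathway lists. *Ces2a*, a carboxylesterase that cleaves drug and lipid esters (ENSMUSG00000055730, chromosome 8 from 104734003 to 104741634), was at 490.3, 557, 270.4, 509 and 614 CPM in RYGB Chow and 149, 141, 152, 169 and 133 CPM in RYGB HFD (-1.71, SE 0.15, adjusted p = 9.61e-07). *Neat1*, the long non-coding RNA that builds paraspeckles in the nucleus, was at 54, 85, 52.3, 57.7 and 84.5 CPM and 189, 272, 134, 183 and 219 CPM (1.58, SE 0.21, adjusted p = 0.000186). *Ptk6*, a tyrosine kinase of epithelia, was at 0.545, 1.13, 0.11, 0.489 and 0.283 CPM and 3.48, 3.18, 3.57, 2.6 and 1.86 CPM (2.51, adjusted p = 0.000549). *Stxbp6*, a regulator of vesicle fusion, rose from 11.2 ± 1.92 to 20.1 ± 2.49 CPM (adjusted p = 0.000553). In all 4 the groups did not overlap, and all 4 were called without both RYGB Chow mice 3 and 5.

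The largest fitted rises were in genes of low level that are known from other cells. *Cfd*, adipsin, a complement protease made chiefly by fat cells, was at 0.654, 0.162, 0, 0.782 and 0.453 CPM in RYGB Chow and 24.4, 3.07, 12.5, 1.12 and 0.864 CPM in RYGB HFD (4.32, adjusted p = 0.0139). The rise was carried by RYGB HFD 1, 2 and 3. Of the 5 adipocyte markers *Cfd* held nearly all counts (39 in RYGB Chow and 757 in RYGB HFD), *Plin1* had 6 and 3, *Adipoq* 0 and 1, and *Lep* and *Retn* 0 in both groups. *Prtn3*, a protease of neutrophils, was at 0.381, 0.431, 0.385, 0.147 and 0.736 CPM and 5.82, 2.81, 11.4, 1.83 and 0.997 CPM (3.46, adjusted p = 0.00432), with reads that may belong to the overlapping *Plppr3*, and *Themis*, a regulator of T cell signalling, was at 0.49, 0, 0.275, 0.831 and 1.19 CPM and 6.91, 3.7, 15.3, 1.06 and 1.73 CPM (3.36, adjusted p = 0.00816). RYGB HFD 1 and 3 were the highest mice in all 3 genes. With limma-voom *Cfd* (adjusted p = 0.133) and *Themis* (0.068) were not called. The sum of the neutrophil markers was 1.17 to 3.17 CPM in RYGB Chow and 1.25 to 2.13 CPM in RYGB HFD, and that of the T and NK cell markers 2.32 to 17.3 and 3.63 to 4.58 CPM.

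*Tff3*, a trefoil peptide of bile duct and gut epithelium, was at 1.09, 2.1, 0.22, 0.929 and 1.36 CPM in RYGB Chow and 6.96, 6.77, 2.88, 11.4 and 5.25 CPM in RYGB HFD (2.54, adjusted p = 0.00489), without overlap. The 7 cholangiocyte markers summed to 26.1 to 35.5 CPM in RYGB Chow and to 39.6 to 51.4 CPM in RYGB HFD. *Tff3* is 1 of these 7, so that the sums add no separate observation to it. The largest part of each sum was *Spp1*, also a macrophage marker. It overlapped, at 21.6 to 27.8 CPM in RYGB Chow and 24.9 to 34.2 CPM in RYGB HFD. *Sox9* had 382 and 588 counts over the groups, *Krt19* 43 and 61, and *Epcam* 141 and 82. *Tff3* is the only called gene of the 3 tested in that list, and the part of bile duct cells was not tested. *Cd9*, counted among the lipid-associated macrophage markers and also made by other cells, fell by 0.64 (adjusted p = 0.0172), without overlap, and was not called without both RYGB Chow mice 3 and 5 (adjusted p = 0.151). It was the only gene called of the 7 tested in that list.

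Whether a response to HFD differed between the operations was asked with the mice after sham surgery, in which 2656 genes (21.6%) differed between the diets. The study describes Sham HFD mice as obese and the other groups as lean. A difference between the operations can therefore not be assigned to surgery or to body weight. Of the 245 genes higher in RYGB HFD, 81 were also higher in Sham HFD, 13 were lower there and 151 were not called. Of the 203 lower genes, 64 were also lower in Sham HFD, 7 were higher and 132 were not called. The test of the difference itself, the surgery by diet interaction, called 622 genes (5.06%), and 52 and 48 of the genes higher and lower in RYGB HFD were among them. Across all tested genes the log2 fold changes for HFD after RYGB and after sham surgery had a Pearson correlation of 0.23, between contrasts that share no mice, as a description over genes that are not independent. With each mouse left out, the count of 622 was lowest without Sham HFD 3 (386), Sham HFD 5 (398) and Sham Chow 5 (404) and highest without Sham Chow 2 (802), and DESeq2 called 932.

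Both hepcidin genes and some of the glutathione transferases had a called interaction. *Hamp* had a log2 fold change of -1.34 for HFD after sham surgery (adjusted p = 0.323) against -8.86 after RYGB, a difference of -7.51 (interaction adjusted p = 0.0283). Its levels differed widely between the operations, with means of 829.6 CPM in Sham Chow and 326.8 CPM in Sham HFD. In RYGB Chow the mean was 93.4 CPM, carried by RYGB Chow 3, and in RYGB HFD 0.185 CPM. *Hamp2* rose after sham surgery (1.54, adjusted p = 0.0304) and fell after RYGB (interaction adjusted p = 0.00295). *Gstm3* (0.49 after sham, interaction adjusted p = 0.000369), *Gsta1* (0.04, 0.00885), *Gstm1* (-0.36, 0.00159), *Ephx1* (0.09, 0.00175), *Me1* (0.24, 0.000772) and *Abcc3* (0.06, 0.00333) had lower values after RYGB than after sham surgery. *Nqo1* and *Gstm2* rose with HFD after sham surgery (0.83, adjusted p = 0.0124, and 0.88, 0.00403) and fell after RYGB. In the list of glutathione transferases and NRF2 targets 9 of 32 genes had a called interaction, all with the lower value after RYGB. Among the transferases that fell after RYGB, *Gsta2* (interaction adjusted p = 0.218), *Gsta4* (0.977), *Gsto1* (0.857), *Gstp1* (0.327) and *Gstt3* (0.309) had none. *Cyp3a11* fell in both, with -3.67 after RYGB and -2.76 after sham surgery, and the difference did not pass (adjusted p = 0.0611), nor did that of *Ces2a* (0.0936), *Cyp2c29* (0.692) or *Neat1* (0.638).

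Several plasma protein genes differed the other way. The 3 fibrinogen chains fell with HFD after sham surgery (*Fgb* -0.34, adjusted p = 0.0152, *Fgg* -0.33, 0.0228, and *Fga* -0.32, 0.0304) and rose after RYGB, with interaction adjusted p of 0.0012, 0.00234 and 0.00704. *C3* did the same (-0.47 after sham, adjusted p = 0.00335; interaction adjusted p = 0.0018), as did *C8a* (-1.07, 6.1e-06; 6.69e-05) and *Trf* (-0.35, 0.00909; 0.00201). In the coagulation list 12 of 31 genes had a called interaction, all with the higher value after RYGB, and in complement 10 of 34 were higher and 1 lower. The acute phase list had a median above 0 under both operations, with 0.39 after RYGB and 0.26 after sham surgery and 1 interaction called in each direction.

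Several genes named for a small interaction p differed between the diets after sham surgery and were not called after RYGB. *C8b* had a log2 fold change of -2.03 after sham surgery (adjusted p = 5.33e-08) and of 0.17 after RYGB (adjusted p = 0.598). For *Hsd3b5*, a steroid dehydrogenase of male liver, these values were -7.07 (adjusted p = 3.71e-06) and 0.79 (0.441), and for *Anxa2*, annexin A2, 2.76 (2.74e-08) and 0.38 (0.308). *Acnat2*, an acyltransferase, rose by 1.90 after sham surgery (6.36e-06) and had -0.67 after RYGB (adjusted p = 0.0767). In *Cyp2a4* (5.34, adjusted p = 6.02e-05) and *Abhd3* (0.36, 0.00182) both diet differences were called, a rise after sham surgery and a fall after RYGB (-3.30 and -0.41). Ribosomal protein genes fell in 77 of 80 cases after sham surgery, with a median of -0.66 against -0.23 after RYGB, and 16 had a called interaction. Proteasome genes had a median of -0.20 after either operation. Of these 39 genes, 15 were called lower after sham surgery and 0 had a called interaction. Of the 622 genes, 467 were called after sham surgery and not after RYGB.

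**Figure D5:**
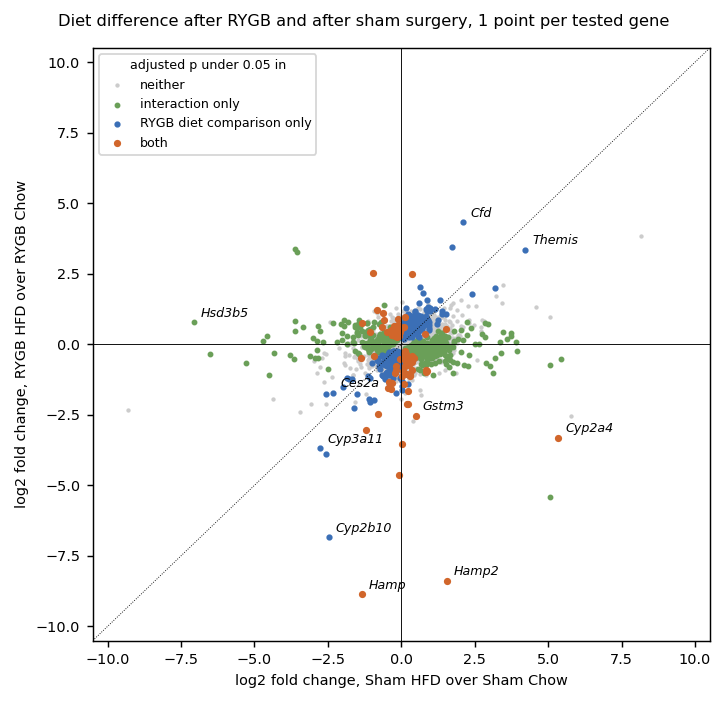
Log2 fold change for HFD against chow after RYGB (vertical) and after sham surgery (horizontal) for the tested genes, coloured by whether the gene was called in RYGB Chow vs. RYGB HFD and in the interaction. *Hamp2* lies at -8.39 after RYGB and 1.54 after sham surgery, and *Cyp3a11* at -3.67 and -2.76.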

How the data were processed

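Liver RNA of 20 mice was sequenced, with 1 library per mouse and 5 mice per group. The authors trimmed reads with Trimmomatic 0.36, aligned them to mm10 with HISAT2 2.1.0 and deposited raw read counts per Ensembl gene from featureCounts 1.5.0-p3, without normalization. The annotation release, the strand setting and the handling of reads with several matches are not given in the sources used here, so near-identical copies and overlapping genes are uncertain. Groups and mouse numbers come from the labels, 0 columns lacked a sample, and 0 columns were identical. Of the 54532 genes, 54495 were given a symbol and position from GENCODE M21, and 0 rows named no gene.

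The 12289 genes that reached 2 CPM in 3 or more mice were tested with edgeR 4.0.16 (R 4.3.3). Its two-sided quasi-likelihood F-test was run with TMM factors on the 4 groups together, and p-values were adjusted by Benjamini-Hochberg over these genes, with a threshold of 0.05. The contrasts were RYGB HFD less RYGB Chow, Sham HFD less Sham Chow, and their difference (the interaction). Standard errors were derived from the F statistic. All adjusted p-values are from this test unless another tool is named. For the 149 named genes an exact permutation test on log2(CPM + 0.5) was added, whose smallest two-sided p is 0.00794 over 252 splits. Every gene without overlap between the groups gets this value, also those named for their lack of overlap. Where one group had at most 3 counts of a gene, its fold is given as a bound against 3 counts over the group or with an exact interval. Intervals and floors cover counting error only, since no molecular identifiers are named for these libraries. The edgeR p-values weigh a difference against the spread between mice within groups, estimated over the 4 groups together. The procedure was tested on simulated data.

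Named were the 6 genes per direction with the smallest p without overlap between the groups, the 4 of largest fitted fold, the anchor genes of each pathway list called or not, the 2 called genes per list and direction with the smallest p, and the 4 genes per direction with the smallest interaction p. Predicted genes and pseudogenes were left out of the first, second and last of these. All other called members of the lists are given too. The members and lists were chosen with earlier results of these data known. The listed symbols *Cyp2d13* and *Gsta13* were not matched and were not analysed here. A few genes that these rules name are not reported here.

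Alternatives were limma-voom (limma 3.58.1), DESeq2 1.42.0, library sizes alone, RLE factors, a minimum of 5 CPM, no filter, a model of only the 2 groups, the replicate number as a block, a pseudocount of 2 for the permutation test, and each mouse left out. Leaving out both RYGB Chow mice 3 and 5 was added after seeing the data. Promoter stretches are the bases before the RefSeq start (GRCm38.p6), without bases that GENCODE places in an exon. Motifs were searched as spelled on both strands in Python 3.11.15.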

Additional observations from a re-analysis of the deposited data

Results flagged for a closer look

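In 296 groups of 5 RYGB mice, one per named gene and diet, 28 had 1 mouse far from the other 4 by Dixon's criterion, where chance gives about 1 in 20, or 14.8. RYGB Chow 5 was such a mouse for 7 genes, high in each. They were *Bst2* (231 CPM), *Isg15* (10.9) and *Ifit1* (13.2) of the interferon response, *Hp* (3094) and *Lcn2* (12.6), *Nqo1* (12.6) and *Stxbp6* (14.5). RYGB Chow 3 was apart for 7, high in *Hamp* (447 CPM), *Apoa4* (225), *Apoa5* (1332), *Cyp2a4* (13.2), *Cyp39a1* (143) and *Pck2* (18) and low in *F9* (181). RYGB HFD 3 stood apart for *C8a* (1169 CPM), *Clu* (1936) and *Cyp2c55* (1.9), each high, and RYGB HFD 5 for *Cps1* (4702), *Ass1* (2979), *Tat* (711) and *Pck1* (2565), each high. The others were RYGB Chow 1 for *Tat* (1182 CPM) and *Gstp1* (579.9), RYGB Chow 4 for *Acnat2* (20.6) and *Anxa2* (11.8), RYGB HFD 1 for *Idi1* (200.1), RYGB HFD 2 for *Hamp* (0.521) and RYGB HFD 4 for *Nqo1* (1.83).

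Among the named genes 49 had a called surgery by diet interaction (edgeR, adjusted p under 0.05), given here as the log2 fold change for HFD after RYGB less that after sham surgery. Of the iron genes, *Hamp* had -7.51, *Hamp2* -9.93, *Ftl1* -0.47, *Fth1* -0.46 and *Trf* 0.75. The detoxification genes among these 49 had lower values after RYGB, at *Gstm1* -1.21, *Gstm2* -1.83, *Gstm3* -3.02, *Gstm4* -0.93, *Gsta1* -3.56, *Mgst3* -1.28, *Nqo1* -1.81, *Ephx1* -1.50, *Cyp3a59* -1.68, *Cyp2a4* -8.64 and *Abcc3* -1.02. The whole xenobiotic P450 list was mixed, with 8 interactions called lower and 3 higher after RYGB. Its median log2 fold change was -0.36 after RYGB and -0.30 after sham surgery, where 20 genes were called lower and 7 higher. The clotting, complement and acute phase genes among the 49 had higher values, at *Fga* 0.72, *Fgb* 0.86, *Fgg* 0.82, *F11* 1.47, *Hrg* 0.59, *Klkb1* 0.65, *Plg* 0.49, *C3* 0.91, *C8a* 1.51, *C8b* 2.19, *Clu* 0.38, *Hc* 0.65 and *Itih3* 0.98. In the whole lists, 1 complement gene and 1 acute phase gene had a called interaction with the lower value after RYGB. In lipid and bile acid genes the difference was -3.46 for *Apoa4*, -1.70 for *Cd36*, -1.88 for *Me1*, -2.57 for *Acnat2*, 2.06 for *Idi1*, 0.66 for *Scap*, 0.53 for *Scarb1* and 2.98 for *Slco1a1*. Of the growth hormone list and the ribosome, *Igf1* had 0.77, *Igfbp2* 2.15, *Hsd3b5* 7.86, *Rpl3* 0.49, *Rplp0* 0.42 and *Rps6* 0.41. The last were *Cps1* 1.03, *Gpi1* -0.62, *Ptk6* 2.15, *Tff3* 3.49, *Anxa2* -2.38 and *Abhd3* -0.77.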

How the results depend on the processing

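Genes higher and lower in RYGB HFD numbered 245 and 203, 399 and 352 with DESeq2, 157 higher without a filter, 94 and 90 in a model of only the 2 groups, 89 and 89 without both RYGB Chow mice 3 and 5, and, with each mouse left out, 122 (without RYGB HFD 3) to 234 and 114 (without RYGB HFD 4) to 194. The interaction gave 386 to 802 genes with each mouse left out, the sham diet comparison 2009 to 2647. Of the 86 called named genes, 39 kept the call under every alternative they were tested in and none lost it under DESeq2, RLE factors or a CPM of at least 5, while 12 lost it with limma-voom, 6 with library sizes, 14 without a filter, 38 with only the 2 groups and 34 without both RYGB Chow mice 3 and 5. None changed direction. With 1 mouse left out, 33 lost it at least once, from 7 without RYGB Chow 2 to 25 without RYGB HFD 3. The cause was not tested, apart from the fewer mice or groups in some fits. Of the 448 genes, 148 were shared with the fit without both mice. *Hamp* and *Hamp2* had a permutation p of 0.00794 with either pseudocount. Low counts limit *Hamp*, *Hamp2*, *Cyp2b10*, *Cyp2a4*, *Gsta1*, *Cfd*, *Prtn3*, *Themis* and *Ptk6*.

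Same-numbered RYGB mice did not deviate together (r from -0.244 to 0.159, 1 of 5 RYGB Chow mice closest to its own number), and the labels do not say what a number marks. With the replicate number as a block, 204 genes were higher, 164 lower and 492 had an interaction, with 14 named calls lost.

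Genes that turned direction were not called under any of these fits (log2 fold changes). Without both RYGB Chow mice 3 and 5 *Cps1* had -0.142, *Xbp1* -0.043, *Ddit3* 0.052 and *Arntl* -0.225. *Xbp1* had -0.003 with library sizes and -0.004 without a filter, *Mup20* -0.011 and -0.002 there and -0.028 with limma-voom, and *Arntl* -0.565 with limma-voom and -0.202 with the block. With each mouse left out, the range was -0.18 to 0.028 for *Acaca*, -0.025 to 0.224 for *Orm1*, -0.001 to 0.216 for *Nr1i3*, -0.109 to 0.13 for *Cps1*, -0.347 to 0.191 for *Tat*, -0.111 to 0.129 for *Xbp1*, -0.814 to 0.308 for *Arntl*, -0.112 to 0.1 for *Mup20*, -0.126 to 0.049 for *Apoc3*, -0.107 to 0.53 for *Isg15* and -0.069 to 0.429 for *Ifit1*.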

Other observations

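The genes and families here were chosen after their values were seen, and are given as values with no explanation (edgeR adjusted p). Over all tested genes, 1.99% were called higher and 1.65% lower. Of 16 UDP-glucuronosyltransferases tested, enzymes that conjugate drugs and bilirubin with glucuronic acid, 4 were lower in RYGB HFD and 0 higher, with a median log2 fold change of -0.31 after RYGB and -0.12 after sham surgery. *Ugt1a9* was at 63.7, 68.3, 69.9, 52.4 and 59.2 CPM in RYGB Chow and 12.2, 10.8, 12.2, 19.8 and 21.8 CPM in RYGB HFD (-2.03, adjusted p = 2.17e-05), and *Ugt2b5* had -0.75 (0.000549). *Ugdh*, which makes the glucuronic acid donor, was at 169.6, 204, 208, 192 and 215 CPM and 133, 108, 141, 92.4 and 109 CPM (-0.76, adjusted p = 0.000531). Of 13 carboxylesterases, 5 were lower and 0 higher, among them *Ces2a* and *Ces1d* (-1.05, adjusted p = 0.00242), with a median of -0.24 after RYGB and -0.26 after sham surgery. Of 12 thioredoxins, glutaredoxins and peroxiredoxins, 3 were lower (*Glrx*, *Txn1*, *Prdx1*) and 11 had a value below 0, with a median of -0.14 after either operation. Of 13 aldo-keto reductases 2 were lower (*Akr1a1*, *Akr1c13*), with a median of -0.09 after RYGB and -0.04 after sham surgery.

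*Csad*, the enzyme that commits cysteine to taurine synthesis, was at 412, 477, 771, 299 and 479 CPM in RYGB Chow and 95.6, 45.1, 38.3, 59.3 and 59.9 CPM in RYGB HFD (-3.03, SE 0.34, adjusted p = 2.46e-05), and it also fell after sham surgery (-1.21, adjusted p = 0.0116). Enzymes of amines fell as well, *Hdc*, which makes histamine (-1.36, adjusted p = 0.000531), and *Maoa*, which breaks down amines (-1.04, adjusted p = 0.00419). *Blvrb*, a biliverdin reductase of heme breakdown, had -0.91 (adjusted p = 0.000674). Within the *Nat8* group of acetyltransferases, *Nat8* (-1.11, adjusted p = 0.0367) and *Nat8f5* (-1.37, 0.0172) were lower and *Nat8f4* (1.00, 0.00419) and *Nat8f2* (0.49, 0.021) higher, where reads of these close copies may be shared.

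Some genes of other secreted proteins rose too. *Lrg1*, a leucine-rich plasma glycoprotein, was at 375, 395, 345, 355 and 444 CPM in RYGB Chow and 693, 677, 1078, 600.2 and 707 CPM in RYGB HFD (0.97, adjusted p = 0.000745). *Fn1*, plasma fibronectin, had 0.56 (adjusted p = 0.00276), *Mug2*, a protease inhibitor of the macroglobulin family, 0.71 (0.00816), *Pzp*, of the same family, 0.42 (0.0143), and *Cpn2*, of carboxypeptidase N, 0.43 (0.0193). *Ang* and *Rnase4*, ribonucleases transcribed from one locus, had 0.61 (adjusted p = 0.0313) and 0.54 (0.0272), and *Ang* fell after sham surgery (-0.65, adjusted p = 0.00527). *Slc22a7*, the organic anion transporter OAT2, was at 16.1, 27.6, 12.3, 19.99 and 20.7 CPM in RYGB Chow and 64.6, 48.8, 54.1, 51.5 and 69.2 CPM in RYGB HFD (1.57, adjusted p = 0.00372).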
